A study of Mus musculus with 24 samples.

Results

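The genes described here are 10 RNA-binding proteins that set splicing choices in muscle: Mbnl1, Mbnl2, Mbnl3, Celf1, Celf2, Rbfox2, Rbm24, Rbm38, Ptbp1 and Qk. They were taken by name from a list and stand among 15839 genes with reads in either of 2 mouse cell lines. All 10 had reads in C2C12 and 7 had reads in NSC34. C2C12 is a wild-type myoblast line that fuses into myotubes, and NSC34 is a wild-type line with motor neuron traits. Each line was grown without co-culture (control, n = 6 libraries) or in co-culture for 3 days (n = 6), and total RNA extracted with Trizol was read on a MinION, a nanopore sequencer. The series text says that the myoblasts were grown with the motor-neuron-like cells. How the lines were parted before extraction, and whether libraries of a group came from separate cultures, is not given in the sources used here, so the p-values measure the spread between libraries, which may be technical.

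MBNL proteins bind YGCY-type elements in pre-mRNA and drive the switch from fetal to adult exon patterns in muscle, while CELF1 and CELF2 act against them at many of the same exons. Sequestration of MBNL proteins by expanded CUG repeats, together with raised CELF1, underlies mis-splicing in myotonic dystrophy. RBFOX2 binds (U)GCAUG and, with RBM24 and RBM38, promotes exons used late in myogenesis. PTBP1 represses exons in undifferentiated cells and falls during differentiation, and Quaking (Qk) binds ACUAAY elements and also regulates exons, RNA stability and circular RNA formation in muscle. Several of these genes splice their own transcripts.

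Depth separates the lines. C2C12 libraries held 121154 to 658075 reads (median 183415 in controls and 309547 in co-culture) and NSC34 libraries 88 to 30314. The 10 genes took 2582 of 3309635 C2C12 reads (0.078%) and 33 of 70865 NSC34 reads (0.0466%). The 12 muscle markers together took 0.867% to 1.15% of reads in C2C12 controls, 1.09% to 1.22% in co-cultured C2C12 and at most 0.0928% in NSC34. Of 16 motor neuron markers, those with reads took 0.0175% to 0.0239% of C2C12 reads and 0 to 0.173% of NSC34 reads. In NSC34, 9 of the 16 had reads, led by the neuronal tubulin Tubb3 (26 reads) and the intermediate filament gene Prph (25), followed by Gap43 and Snap25 with 7 each, and Isl1 with 3. C2C12 had 190 reads of Tubb3 and 1 of Prph. Of its 680 motor neuron marker reads, 369 were of Stmn2 and 13 of Nefm, which both had 0 reads in NSC34. Of the cholinergic and motor neuron identity markers, Chat, which makes acetylcholine, had 1 read in NSC34. Slc18a3, Slc5a7, Mnx1, Isl2 and Lhx3 had 0 there.

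The 54-nt, 36-nt and 95-nt exons shared by Mbnl1 and Mbnl2 are shown first because the deposited transcripts differ in them. They lie in GRCm38 on the forward strand, in coding sequence, at chr3:60614683-60614736, chr3:60621423-60621458 and chr3:60622146-60622240 in Mbnl1, and at chr14:120395712-120395765, chr14:120403336-120403371 and chr14:120404638-120404732 in Mbnl2. The 54-nt exon is known to promote nuclear localisation of MBNL proteins. Capitals mark the bases at which the paralogs differ, and 46 of 54 and 81 of 95 bases were the same (85.2% and 85.3%).
Mbnl1 54-nt exon: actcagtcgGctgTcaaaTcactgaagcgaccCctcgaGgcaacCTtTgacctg
Mbnl2 54-nt exon: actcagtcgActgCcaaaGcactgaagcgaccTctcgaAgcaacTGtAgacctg
Mbnl1 95-nt exon: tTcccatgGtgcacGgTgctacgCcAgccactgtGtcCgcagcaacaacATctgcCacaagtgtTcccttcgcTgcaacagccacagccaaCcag
Mbnl2 95-nt exon: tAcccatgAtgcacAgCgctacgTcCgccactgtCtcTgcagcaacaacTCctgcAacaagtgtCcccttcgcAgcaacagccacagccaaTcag
In the 36-nt exon, 31 of 36 bases were the same (86.1%), and both copies hold TGCATG, the RBFOX element, which capitals mark below.
Mbnl1 36-nt exon: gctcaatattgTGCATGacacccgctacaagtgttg
Mbnl2 36-nt exon: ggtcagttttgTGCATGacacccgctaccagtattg
TGCATG starts at base 12 of both copies. It was searched on the transcript's strand and on the other strand, and 14 of 1033 annotated exons of 36 nt hold it on either (1.36%), 10 of them on the transcript's strand (0.968%). Neither TGCATG nor ACTAAC, a Quaking element, was found in the other exons printed here.

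Quaking proteins differ in their last residues, which come from alternative coding ends, and these set their place in the cell: the QKI-5 form is nuclear, and the QKI-6 and QKI-7 forms are found in the cytoplasm too. Those of the QKI-6 and QKI-7 types are given 5′ to 3′ from the reverse strand of chromosome 17 in GRCm38, at chr17:10214172-10214194 (23 nt) and chr17:10215434-10215474 (41 nt). Lower case is used throughout, with no base marked.
Qk 23-nt coding end: gtatggctttcccaacgaaaggc
Qk 41-nt coding end: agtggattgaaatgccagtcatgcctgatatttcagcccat

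Per kilobase of transcript, Rbfox2 was highest in C2C12. Its mean over the 12 libraries was 68.5 ± 14.8 CPM per kb (reads scaled to library size, SD), followed by Mbnl1 at 45.8 ± 16.4 and Ptbp1 at 23.4 ± 10.4. Rbfox2 was above Mbnl1 in 10 of 12 libraries and Mbnl1 above Ptbp1 in 11 of 12. Celf1 (15.7 ± 6.38), Mbnl2 (15.4 ± 6.78), Rbm24 (14.9 ± 7.23), Celf2 (13.5 ± 4.15) and Qk (11.5 ± 3.72) followed, and each was above the next of these 5 in only 5 to 7 of 12 libraries, so their order lies within the spread. Mbnl3 (7.96 ± 5.22), the member linked to proliferating myoblasts, and Rbm38 (7.34 ± 3.34) were lowest. The per-kb value of Mbnl1 rests on a length of 2.52 kb. That length is weighted mostly by Mbnl1-221, a model of 1553 nt whose annotated end is incomplete. The next most read model, Mbnl1-201, has 5655 nt, and a longer divisor would lower the Mbnl1 value. The places of Ptbp1, Celf1 and Qk also depend on the division by length. In mean CPM without it, Rbfox2 (252) and Mbnl1 (115) still led and Mbnl3 and Rbm38 were still lowest. Celf1 (90.7) and Qk (84.5) then stood above Ptbp1 (66.9) and Celf2 (65.3). Whether longer transcripts gave more reads per molecule in these libraries was not tested. Within families, pooled levels per kb were 66.4 for Rbfox2 against 3.70 for Rbfox1 and 0.335 for Rbfox3, and 22.3 for Ptbp1 against 5.62 for Ptbp2, its neuronal paralog. Celf3 to Celf6 had 1 to 3 reads each, against 267 for Celf1 and 236 for Celf2.

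**Figure D1:**
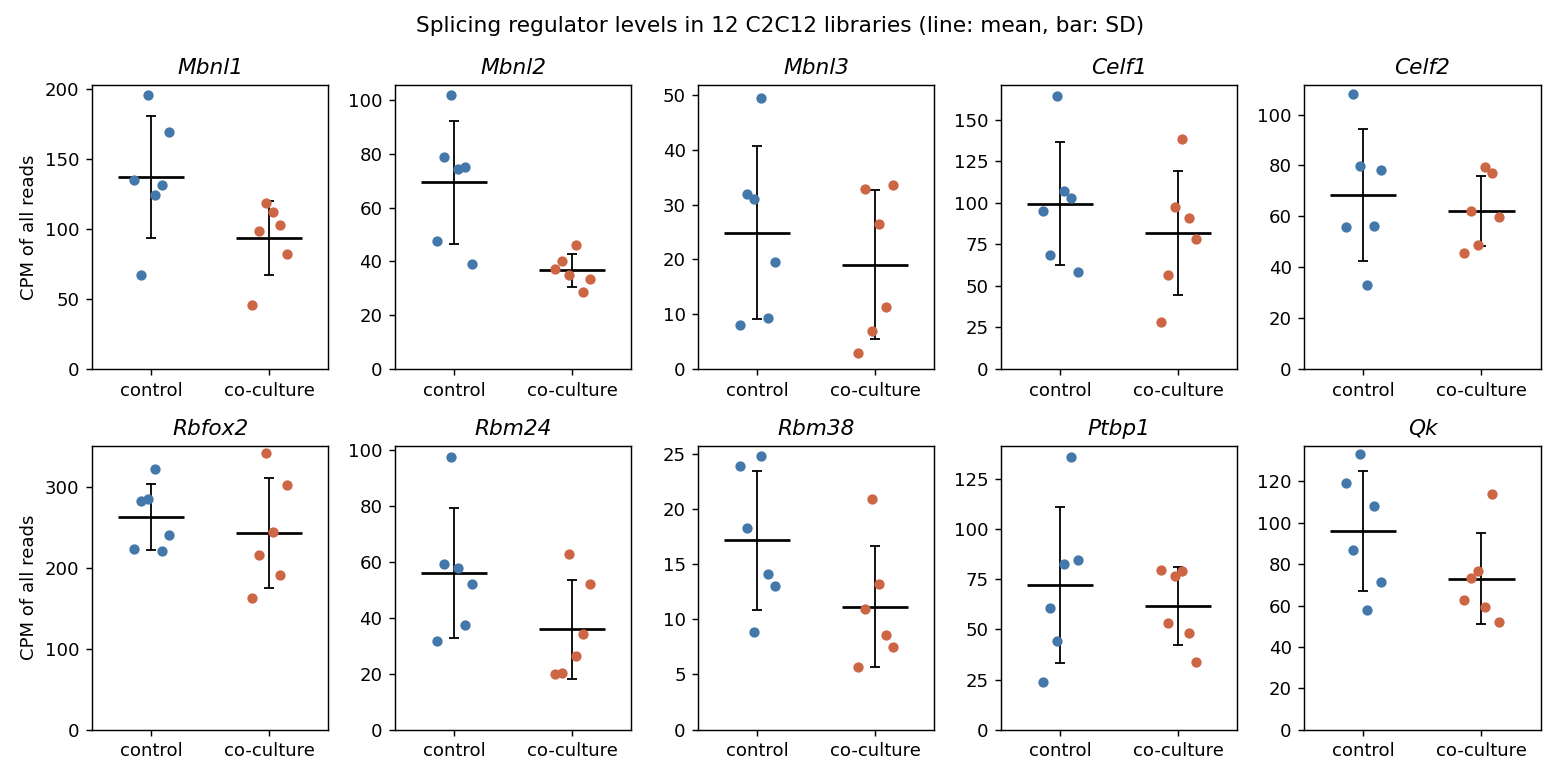
Each panel plots 1 gene in C2C12, with CPM of all reads on the y axis (from 0) and the control and co-cultured libraries side by side; points are libraries, lines are means and bars are SD. Mbnl2 controls reach 102 CPM, and no co-cultured library exceeds 46.2 CPM.

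Mbnl2 fell in co-cultured C2C12 and was the 1 member of 8 tested that passed the threshold. It passed the filter on low counts mainly through its control libraries, the group where it is high. Its direction is therefore partly set by the filter, and the call is given as a description. With a filter on mean count instead, the log2 fold change was -0.98 (edgeR adjusted p = 0.0385). The Mbnl2 gene lies at chr14:120275669-120431697 on the forward strand. In controls it had 39.1, 74.7 and 102 CPM of all reads (lowest, median and highest library), and in co-culture 28.5, 35.9 and 46.2 CPM. All 6 co-cultured libraries were below the control median and 4 were below the lowest control, yet the groups overlap through control 6, whose 39.1 CPM was under co-culture 2 (40.2 CPM) and co-culture 4 (46.2 CPM). The mean went from 69.5 ± 22.8 to 36.7 ± 6.07 CPM (SD, n = 6 each), which is -0.98 on the log2 scale (SE 0.230, 95% interval -1.46 to -0.51, adjusted p = 0.0349, edgeR quasi-likelihood test with Benjamini-Hochberg adjustment). Over all genes, 37 of 2570 passed (1.44%), 16 of them lower (0.623%). None of the 8 members had groups fully apart, as 44 of the 2570 genes had (1.71%). The call sits close to the threshold: adjusted p was 0.0581 with DESeq2, 0.0866 with no filter on low counts, 0.0516 with the length trend removed and 0.0725 with the replicate block.

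Mbnl2 reads were then split by the annotated type of their transcript. Reads on Mbnl2 transcripts of other types stood at 19.5, 41.3 and 74.3 CPM in controls (lowest, median and highest) and at 0, 7.12 and 17.1 CPM in co-culture, so the groups did not overlap. Their means were 41.4 ± 20.1 and 7.96 ± 8.77 CPM (57 and 20 reads, exact two-sided permutation test p = 0.00216, the smallest that 6 against 6 libraries can give). Reads on protein-coding Mbnl2 transcripts averaged 28.1 ± 24.9 CPM in controls and 28.8 ± 11.6 CPM in co-culture (55 and 46 reads, exact permutation p = 0.955). The difference between these changes had an exact permutation p of 0.0779 in CPM, so the changes were not shown to differ on that scale, and the share of Mbnl2 reads on the other types went from 62.2% ± 30.0 to 22.8% ± 25.2 (exact permutation p = 0.0476). This split was chosen after the values had been seen. How many of all genes would not overlap when split in this way was not computed. Reads on other types also averaged lower in co-culture for Ptbp1 (29.7 to 13.8 CPM) and Qk (13.5 to 4.54), and slightly lower for Mbnl1, Mbnl3 and Celf1. They averaged higher for Rbfox2 (15.9 to 28.3 CPM), Celf2 and Rbm38, and none of these was tested. Most of the Mbnl2 reads on other types are of Mbnl2-205, a processed transcript of 2881 nt with 51 control and 18 co-culture reads. Both of its exons, 118 nt at chr14:120396487-120396604 and 2763 nt at chr14:120428935-120431697, lie wholly inside exons of coding Mbnl2 transcripts. A read that covers only the end of a coding transcript and a read of Mbnl2-205 can therefore be told apart only at 1 junction, and which of these the reads are was not tested. Controls 1 and 4, the shallowest C2C12 libraries, had 0 reads on coding Mbnl2 transcripts and 6 and 9 on the others.

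**Figure D2:**
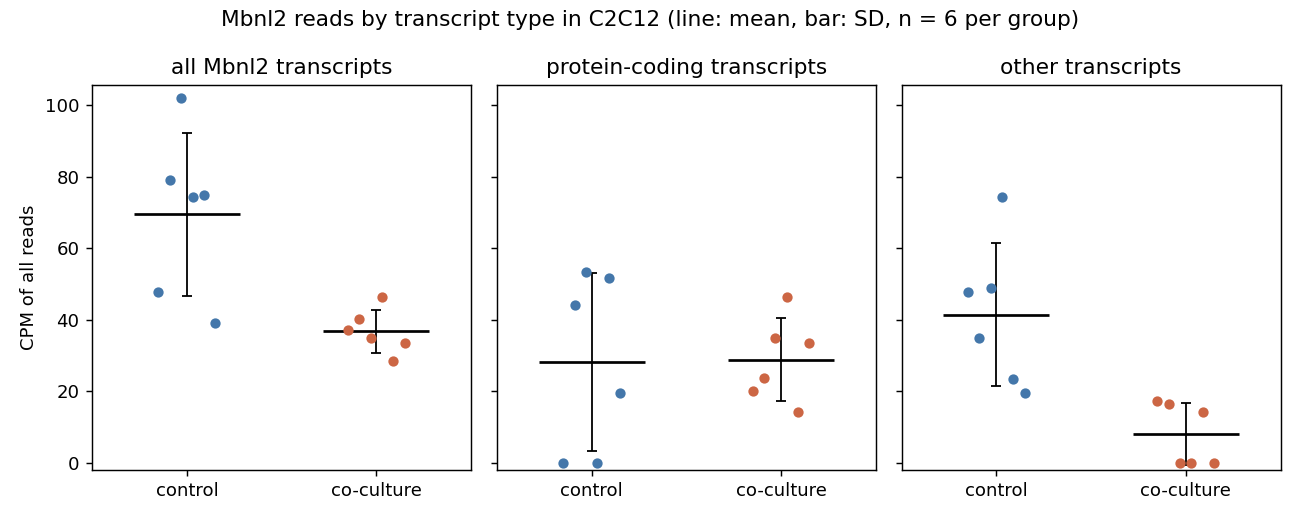
CPM of all reads (y axis) for all Mbnl2 transcripts, its protein-coding transcripts and its other transcripts in C2C12 control and co-culture; points are libraries, lines means and bars SD. In the right panel every control library, at 19.5 CPM or more, is above every co-cultured one, at 17.1 CPM or less, while in the middle panel the means are 28.1 and 28.8 CPM. The right panel rests on 57 control and 20 co-culture reads, and the split was chosen after the values had been seen.

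None of the other 7 tested regulators passed the threshold. Rbm24, which promotes muscle exons and stabilises muscle mRNAs, had 31.8, 54.9 and 97.6 CPM in controls and 19.9, 30.3 and 62.7 CPM in co-culture. The change was -0.82 on the log2 scale with an SE of 0.317, and it did not pass (edgeR adjusted p = 0.213), with 3 co-cultured libraries below the lowest control. Mbnl1, the main MBNL protein of muscle, had 66.9, 133 and 195 CPM in controls and 45.6, 101 and 118 CPM in co-culture, and its change of -0.52 on the log2 scale (SE 0.263) did not pass (edgeR adjusted p = 0.375). Both genes overlap between the groups.

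The CELF genes, Rbfox2, Ptbp1 and Qk gave smaller differences. Celf1 was at -0.37, Celf2 at -0.29, Rbfox2 at -0.16, Ptbp1 at -0.26 and Qk at -0.37 (log2 fold changes, edgeR adjusted p from 0.502 to 0.785). The interval for Rbfox2, the most deeply read member with 810 reads, ran from -0.50 to 0.18, and for Ptbp1 from -0.88 to 0.35. These depths leave changes of that size possible in either gene. Mbnl3 (77 reads) and Rbm38 (43 reads) did not pass the filter on low counts. Mbnl3 averaged 24.9 ± 15.8 CPM in controls and 19.0 ± 13.6 in co-culture, and Rbm38, a p53 target that restrains the cell cycle, 17.1 ± 6.31 and 11.1 ± 5.47 CPM, with overlapping groups in both.

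All 8 tested members had a log2 fold change below 0, with a median of -0.37, against 49.5% of the 2570 tested genes and a median of 0.00. Long transcripts moved the same way: among the 514 longest of the tested genes 66.9% were below 0, with a median of -0.15, and the 8 members were all longer than most genes tested (2.52 to 7.34 kb, against a median of 1.96 kb). With the length trend removed in each library, the 8 stayed below 0 with a median of -0.22. Leaving out control 5 put 1 of the 8, Ptbp1, above 0, at 0.018. The part of transcript length in these values was not tested further.

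**Figure D3:**
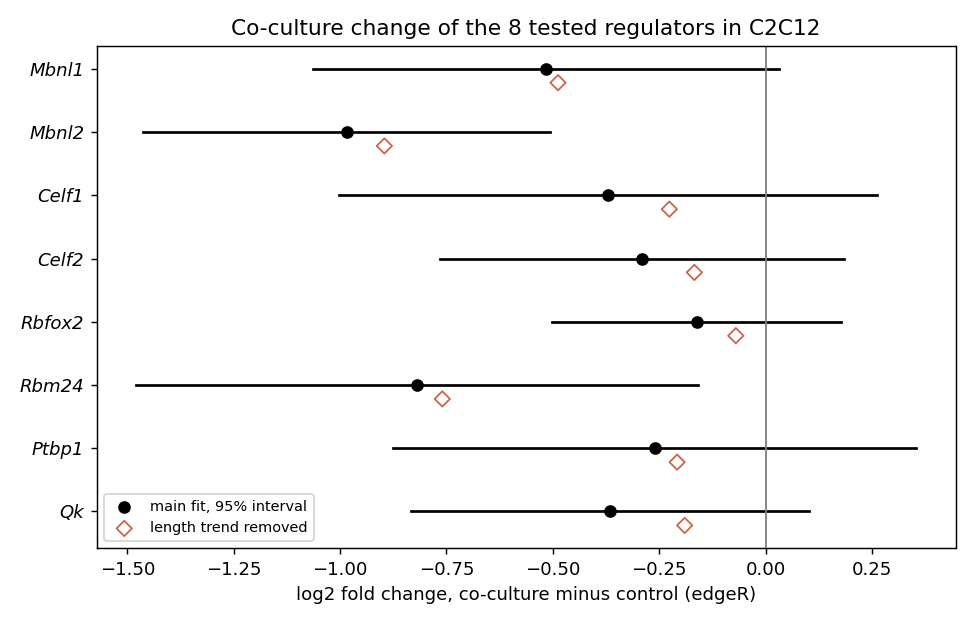
The x axis is the log2 fold change of co-culture over control in C2C12 and each row is 1 of the 8 tested genes; black points and lines are the edgeR estimate with its 95% interval, open diamonds the estimate with the length trend removed. The intervals of Mbnl2 (-1.46 to -0.51) and Rbm24 (-1.48 to -0.16) lie below 0, and of these Mbnl2 passed adjustment over all genes.

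At the transcript level no member passed. The 10 genes had reads on 72 transcripts in C2C12, of which 15 had at least 50 reads and 7 passed the filter; 0 of the 7 were called by edgeR and 0 by DESeq2, against 10 of 2586 over all transcripts in edgeR (0.387%). At an unadjusted p under 0.05 there was 1 of the 7, and 10.9% of all. Of the 7, 6 had a log2 fold change below 0. Mbnl1-221 was at -0.40, Celf2-206 at -0.27, Rbm24-201 at -0.78, Qk-204 at -0.09, Rbfox2-203 at -0.31, Rbfox2-209 at -0.72 and Rbfox2-214 at 0.37 (edgeR adjusted p from 0.441 to 0.998). The share of Rbfox2 reads on each of its 3 tested transcripts did not pass either, nor did any of 594 transcripts tested for usage (0%); at an unadjusted p under 0.05 edgeR gave 9 of the 594 and 0 of these 3.

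Which transcript led differed from library to library. Celf1 had 5 different leading transcripts over the 12 C2C12 libraries, Mbnl2 and Qk had 4 each, Mbnl3, Rbfox2, Ptbp1 and Rbm38 had 3 and Celf2 had 2. Among 2706 genes with at least 100 reads and more than 1 transcript, 63.8% had a single leader and 2.81% had 4 or more. That set is not matched to these genes: its median was 3 transcripts with reads, against 9 for Celf1, Mbnl2 and Rbfox2 and 5 for Qk, and Mbnl3 and Rbm38 have fewer than 100 reads. Celf1-204 held 89 of 267 Celf1 reads, yet Celf1-208 held all of the reads in control 4 and Celf1-206 had reads in co-culture 1 and 5 alone, 25 in all. Leaders differed within both groups, and the way reads were assigned to transcripts is not given in the sources used here.

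**Figure D4:**
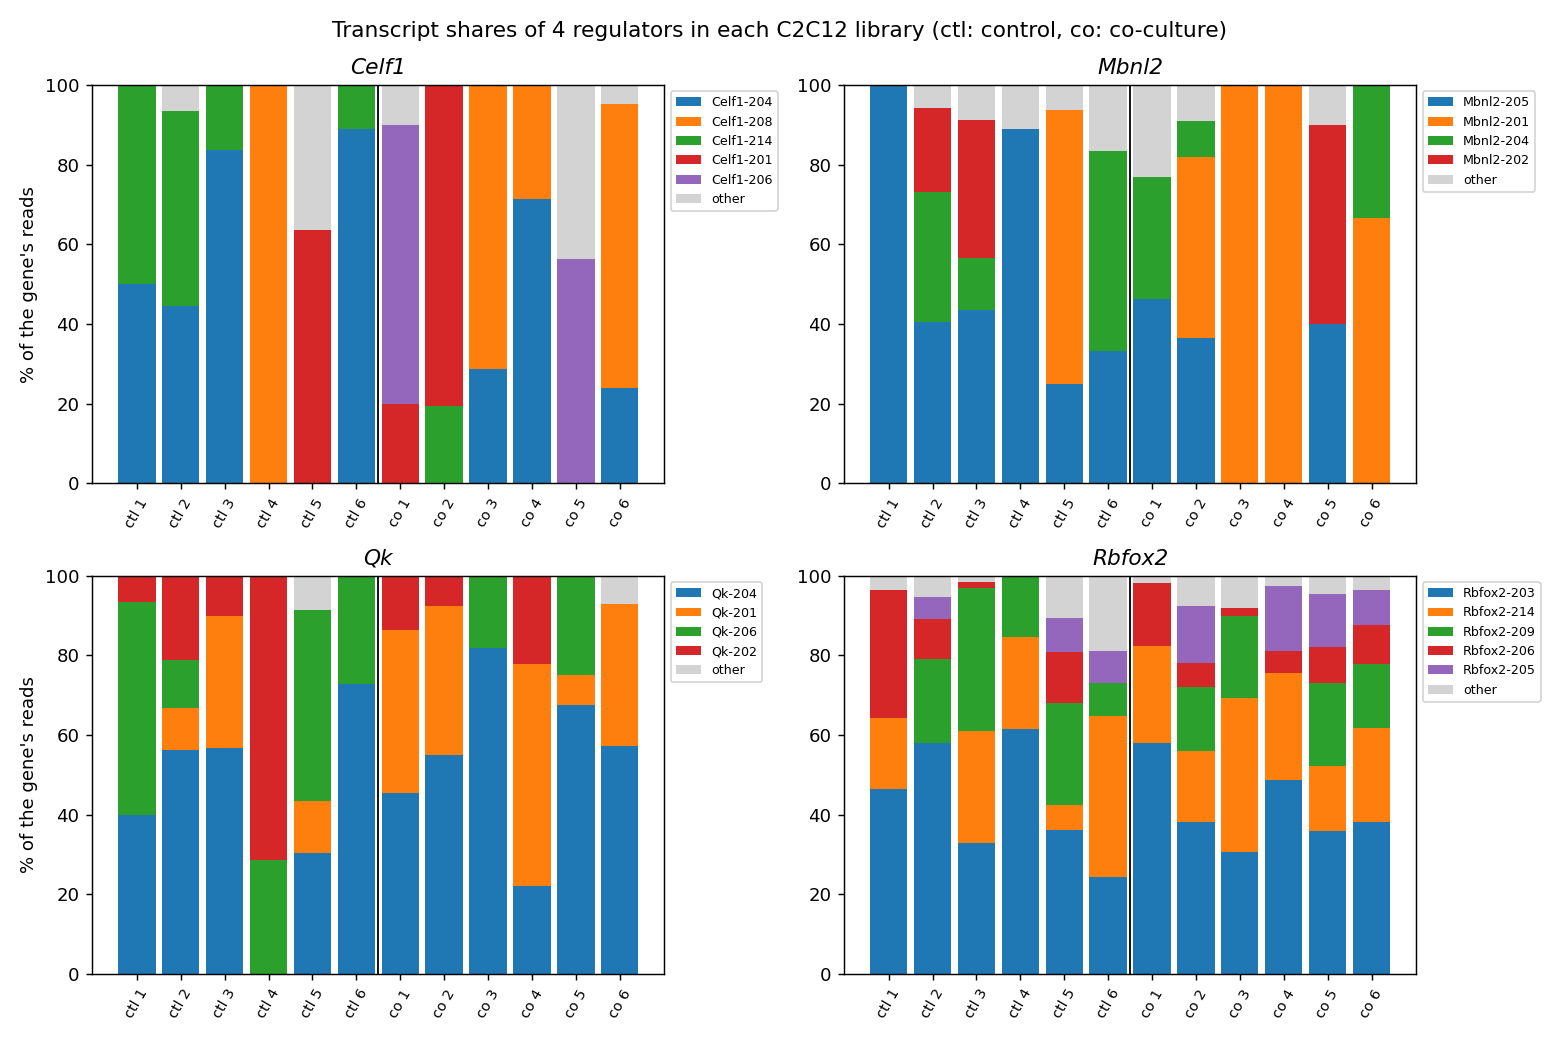
Stacked bars give the percent of a gene's reads (y axis) on its most read transcripts in each C2C12 library, controls left and co-culture right of the line, for Celf1, Mbnl2, Qk and Rbfox2. Rbfox2-203 is present in all 12 libraries, and Celf1 has 5 different leaders.

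Most Mbnl1 reads were assigned to a transcript model that stops before the alternative exons. Here and below, a read counts as holding an exon or end if its assigned transcript contains it. Whether the read itself covers the exon was not examined. Mbnl1-221, a coding transcript of 1553 nt whose annotated end is incomplete and which stops before these exons, led in all 12 libraries with 233 of 336 reads. The other transcripts left 49 control and 36 co-culture reads on models that tell the exons apart. Transcripts with the 54-nt exon took 27 of 49 control reads and 6 of 36 co-culture reads. Those with the 36-nt exon took 22 of 49 and 30 of 36. In 10 of the 11 libraries with such reads, all of them fell on one side for each of these exons, so the library means of 66.7% and 25.3% for the 54-nt exon did not differ beyond that spread (exact permutation p = 0.351). The 95-nt exon was in 45 of 49 and 34 of 36 reads.

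By assigned transcript, the Mbnl2 54-nt exon was in 31 of 55 informative control reads and 35 of 46 co-culture reads (exact permutation p = 0.343 over libraries). The 36-nt exon was in 19 of 106 and 5 of 64. The 36-nt counts take the 51 and 18 reads of Mbnl2-205 as lacking the exon, and without those reads they were 19 of 55 and 5 of 46 (exact permutation p = 0.667 over libraries). The 95-nt exon averaged 41% ± 32.4 over control libraries and 78.6% ± 23.7 over co-cultured ones (exact permutation p = 0.0584). All 51 and 18 reads without it are those of Mbnl2-205, so this is the split described above seen through an exon.

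Rbfox2 carries a pair of alternative exons, of 40 nt and 43 nt, known from the RBFOX family to differ in use between tissues. By assigned transcript, its 40-nt exon at chr15:77094451-77094490 was in 280 of 322 informative control reads and 222 of 265 co-culture reads. The 43-nt exon at chr15:77091812-77091854 was in 35 and 33 of those reads. Over libraries the 40-nt exon averaged 86.3% ± 16.0 and 85.1% ± 5.23 (exact permutation p = 0.9), a difference within the spread. The pair is printed from the reverse strand, with no base marked.
Rbfox2 40-nt exon: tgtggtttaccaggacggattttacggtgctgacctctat
Rbfox2 43-nt exon: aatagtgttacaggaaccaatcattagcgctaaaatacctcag

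Inclusion of the Ptbp1 78-nt exon at chr10:79860117-79860194 is known to alter how strongly the protein represses exons. By assigned transcript, this exon was in 67 of 73 control and 65 of 85 co-culture reads (exact permutation p = 0.697). Ptbp1-213, a retained-intron transcript, took 52 of the 211 Ptbp1 reads.

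Among the exons and ends compared, the 23-nt coding end of Qk had the smallest p. This end, of the QKI-6 type, took 10%, 44.9% and 100% of Qk reads in controls (lowest, median and highest library) and 7.14%, 15.9% and 25.0% in co-culture. Controls ran higher, and the groups overlap through control 3 at 10%. The means were 47.8% ± 31.7 and 15.6% ± 7.48, a difference of -32.2 percentage points (exact permutation p = 0.0216, unadjusted). In all, 12 exons and ends were compared in this way, chosen after the data had been seen, and this was the only one of the 12 under 0.05. Pooled, it was 54 of 143 control reads and 21 of 136 co-culture reads. It includes Qk-202, a transcript marked for nonsense-mediated decay with 21 and 8 reads. The 41-nt end, of the QKI-7 type, averaged 9.48% ± 13.1 and 29.5% ± 21.3 (exact permutation p = 0.0931), and the 14-nt end, of the QKI-5 type, 42.7% ± 25.5 and 54.8% ± 20.2 (exact permutation p = 0.387). The 3 shares add to the whole of the Qk reads and are not independent. Single libraries held 7 to 57 Qk reads.

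**Figure D5:**
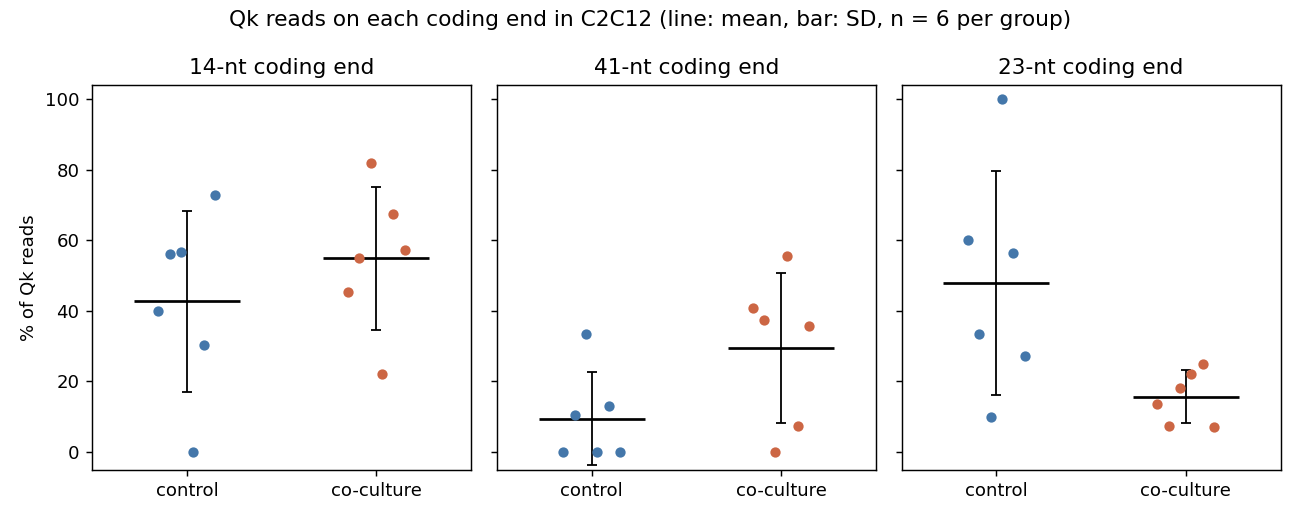
Percent of Qk reads (y axis) on each of 3 coding ends in C2C12 control and co-culture; points are libraries, lines means and bars SD. For the 23-nt end all 6 co-cultured libraries are at 25.0% or less and 5 of the 6 controls are above that.

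Related genes in C2C12 were read against these values. Of 35 other splicing regulators, 7 were tested and 0 called, with a median log2 fold change of -0.18. Among those tested were Matr3 at 0.20, Rbm5 at 0.21 and Rbms3 at -0.29 (edgeR adjusted p from 0.357 to 0.505). Of 51 muscle genes known as splicing targets of these proteins, Mbnl1 and Mbnl2 among them, 33 were tested, with a median of -0.02. The list was chosen with earlier results of these data known. In it 1 gene rose (0.817% of all genes did) and 2 fell (0.623% of all did), namely Mef2a and Mbnl2 itself. Atp2a1, the fast-muscle calcium pump whose exon choice depends on MBNL1, rose (98.3 ± 19.4 to 158 ± 22.4 CPM, log2 fold change 0.66, edgeR adjusted p = 0.0362), and Mef2a, a muscle transcription factor with alternative exons, fell along with Mbnl2 (89.7 ± 49.1 to 41.1 ± 6.11 CPM, -1.22, edgeR adjusted p = 0.0415). Fn1 at -0.53 and Pkm at 0.32 did not pass. Usage was tested for 12 target genes with 0 called, the smallest unadjusted p being 0.020 for Tpm1, whose exons are a classic PTBP1 target (edgeR adjusted p = 0.999). The muscle markers together took a median of 1.05% of reads in controls and 1.16% in co-culture, with overlapping ranges (above), and this share was not tested. Of the 12 markers, 9 were tested as genes: 1 was called higher, and log2 fold changes were above 0 for 5 and below 0 for 4. Whether the marker share bears on the Atp2a1 result was not tested.

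By mean absolute difference of centred log2 CPM over the 12 C2C12 libraries, the genes nearest in pattern to Mbnl2 were Cald1 (0.215), Plec (0.249) and Gnai2 (0.254), against a median of 0.494 over 2569 genes. Their log2 fold changes were -0.53, -0.61 and -0.57. These genes were picked over the same libraries that hold the comparison, so a fall like that of Mbnl2 follows from the choice and the values are a description.

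In NSC34 no member reached the test. The 49 genes that passed the filter gave 0 calls (0%) and 1 at an unadjusted p under 0.05 in edgeR, and DESeq2 also gave 0. Pooled over the 12 libraries there were 14 reads of Mbnl1, 9 of Ptbp1, 4 of Rbfox2, 3 of Mbnl2 and 1 each of Celf1, Rbm38 and Qk. Mbnl3, Celf2 and Rbm24 had 0 reads, which allows up to 42.3 CPM at 3 reads of the total. That limit is close to the pooled C2C12 level of Rbm24 (43.8 CPM) and above that of Mbnl3 (23.3), so absence cannot be stated for them. Celf2, at 71.3 CPM in C2C12 with a 95% interval of 62.5 to 81.0, lay above it, but without co-culture 2, which holds 30314 of the 70865 reads, the limit is 74.0 CPM. With genes of at least 10 reads in total tested, Celf2 did not pass between the lines (edgeR adjusted p = 0.0599). All 9 Ptbp1 reads were in co-cultured libraries, 4 of the 6, against 0 of 15858 control reads, which allows up to 189 CPM beside 164 CPM (95% interval 74.8 to 311) in co-culture, so this difference was not detectable at this depth. Of the NSC34 Mbnl1 reads, 13 of 14 were on Mbnl1-221, and 6 Ptbp1 reads were on Ptbp1-216.

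Between the lines, Rbfox2 stood at 245 CPM pooled in C2C12 (95% interval 228 to 262) and at 56.4 CPM (15.4 to 145) in NSC34, from 4 reads in 3 of 12 libraries. It passed the count filter through its C2C12 libraries, the group where it is high, so its direction is partly set by the filter and the test below is given as a description. The edgeR fit over all 24 libraries, scaled by library totals, gave a log2 difference of 2.06 (SE 0.658, adjusted p = 0.00932), and with the TMMwsp factors first planned 2.65 (adjusted p = 0.000274). Mbnl1, at 102 CPM pooled in C2C12 and 198 CPM in NSC34 (95% interval 108 to 331), did not pass (-0.83, edgeR adjusted p = 0.280). Of 1328 genes tested, 647 passed (48.7%), 374 of them higher in C2C12 (28.2%) and 273 lower (20.6%), so a call here is common. With the length trend removed the pair changed places: Rbfox2 was at 1.01 (edgeR adjusted p = 0.280) and Mbnl1 at -1.64 (adjusted p = 0.0395). Controls alone gave 2.04 for Rbfox2 (edgeR adjusted p = 0.148), and leaving out any C2C12 library left both genes under the filter. Line, deposited table and depth cannot be told apart. The co-culture effect was not shown to differ between the lines for Rbfox2 or Mbnl1 (interaction log2 0.03 and -0.62, edgeR adjusted p = 0.9998 for both; 0 of 1328 genes were called, 0%, with 105 at an unadjusted p under 0.05, and DESeq2 also called 0).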

How the data were processed

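The authors deposited unscaled read counts for each Ensembl transcript, in 1 table per line. The build is GRCm38, per the submitters' processing notes; which aligner, counter, annotation release or strand setting was used is not given here. Without strand, reads of overlapping antisense genes cannot be told apart.

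Transcript identifiers without version were matched to GENCODE M21 (37415 of 37677 in C2C12 and 10374 of 10427 in NSC34, holding 99.8% of reads in each), from which names, positions, transcript types and sequences come. Most deposited versions are 1 higher than in that release. Counts were summed per gene. CPM is scaled to all reads in the library, and CPM per kb divides by the read-weighted transcript length. Each line was tested with edgeR 4.0.16 in R 4.3.3 (filterByExpr, TMM, quasi-likelihood F test), transcript usage with diffSpliceDGE, and p-values were adjusted over all features tested (threshold 0.05). The line comparison had been planned with TMMwsp, but library totals were used after TMMwsp shifted unchanged genes in simulated data on which each fit was checked. Those simulated lines shared the same composition apart from balanced changes, so library totals hold there by design. The simulation therefore cannot decide which scaling is right for the real lines. Alternative exons were read from which transcripts contain them, and library percents compared by exact two-sided permutation (Python 3.11.15, scipy 1.17.1). Those tests, and the Mbnl2 split, were added after seeing the data. Intervals on counts are exact Clopper-Pearson at 95% and the limit for 0 is 3 reads; both cover counting error only, since the reads carry no molecular identifiers.

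Alternatives tried were DESeq2 1.42.0, voom weights in limma 3.58.1, RLE factors or unscaled totals, other filters, a length correction, shallow libraries left out, the replicate block and each library left out. The members and lists were chosen with earlier results of these data known. Besides the 10 genes, the text names transcripts with at least 50 C2C12 reads or 5 NSC34 reads, the 4 genes at most with the lowest p in each list or by usage, and the 3 nearest in pattern to the member of smallest p. One gene that this rule names is not reported here. Other transcripts and markers named were chosen after their values were seen.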

Additional observations from a re-analysis of the deposited data

Results flagged for a closer look

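Among exon percents, 6 values stood apart from the rest of their group by a Dixon test at 95%, over 45 groups tested. That test takes values to be normally spread, and percents of few reads often sit at 0 or 100. Its usual rate of 1 flag in 20 therefore does not hold here. Where the other libraries of a group share 1 value, any library that differs is flagged. For Mbnl1, co-culture 6 had 100% of its informative reads with the 54-nt exon, 0% with the 36-nt exon and 0% with the 95-nt exon. These co-culture 6 values rest on the same 2 reads. Control 6 had 0% with the Mbnl1 95-nt exon. For Mbnl2, co-culture 5 had 55.6% with the 36-nt exon. For Ptbp1, control 1 had 0% with the 78-nt exon. Libraries held 2 to 18 informative reads for the Mbnl1 exons, 5 to 50 for the Mbnl2 exon and 2 to 40 for the Ptbp1 exon.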

How the results depend on the processing

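Mbnl2 kept its direction in each alternative that tested it, and its log2 fold change ran from -1.08 to -0.89. Its call was lost with DESeq2, no filter, the length trend removed, the replicate block and controls 1 and 4 left out (0 members called in each), and kept with RLE factors, library totals, limma-voom and a mean count of at least 10 (adjusted p 0.0339 to 0.0455). Leaving out 1 library at a time gave 0 to 1 members called: the call held without control 1, 5 or 6 or co-culture 4 and was lost without control 4 or co-culture 1, 2, 3, 5 or 6 (adjusted p 0.0141 to 0.0841 over these 10), while without control 2 or 3 the gene was under the filter. Over all genes the 37 calls became 106 with no filter, 10 without controls 1 and 4, and 11 to 74 with 1 library left out. Transcript calls (10) became 25 with DESeq2, 126 with no filter, where 1 member transcript was called (Celf1-206, adjusted p 0.0311), 1 with the replicate block and 5 to 15 with 1 library left out. The 0 NSC34 calls became 7 with at least 10 reads in total. Same-numbered C2C12 libraries correlated at -0.054 to 0.105 in their deviations and NSC34 ones at -0.232 to 0.325, so the numbers were not taken to pair samples; with the replicate block 0 members were called in C2C12, in NSC34, by transcript, by usage and by interaction, and 1 between the lines. Members called between the lines numbered 0 in controls alone and 0 to 2 with 1 library left out, and all-gene calls there fell from 647 to 233 in controls alone. The Rbfox2 interaction was -0.39 with TMM, -0.42 with TMMwsp, -6.27 without libraries under 1000 reads, -0.018 with the replicate block and -6.20 to 1.46 with 1 library left out; Mbnl1 gave 0.028 with the length trend removed and -1.69 to 0.29. The interaction count over all genes went from 0 to 1 with the length trend removed. With 1 library left out, Ptbp1 ran from -0.39 to 0.018, Rbfox2-214 from -0.078 to 0.72, Qk-204 from -0.38 to 0.14 and the usage of Rbfox2-203 from -0.17 to 0.046. Exon differences in percentage points ran from -20.0 to 16.7 for the Mbnl1 95-nt exon (2.60 with pooled reads), -9.73 to 4.86 for the Mbnl2 36-nt exon (-9.48 without Mbnl2-205 reads), -7.10 to 1.60 for the Rbfox2 40-nt exon and -1.83 to 5.99 for the 43-nt exon; the Qk 23-nt end kept p from 0.00433 to 0.0433 (exact permutation). The cause was not tested in any of these. In NSC34, with 88 to 30314 reads per library, 49 genes and no member passed the filter.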
